A study of Mus musculus with 4 samples.

Results

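The 10 genes described here mark the branches of the endothelium, the cell layer that lines vessels. They comprised 3 arterial genes (Sox17, Gja5 and Nos3), 2 venous genes (Nr2f2 and Aplnr), 3 lymphatic genes (Prox1, Flt4 and Lyve1), and the other members of the SoxF family, Sox18 and Sox7. The genes were taken by name, and all 10 were matched among 21887 protein-coding genes. The assay was ATAC-seq, which tags accessible DNA with the Tn5 enzyme, and the material was lung of wild-type mouse embryos at E15.5, in 4 libraries. All 4 libraries formed 1 group, with no added allele or agent, and the labels did not say whether they came from separate embryos, so each SD covers only the spread between libraries, which may be technical. In whole tissue, fewer cells of a type and less open DNA per cell cannot be told apart.

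Arterial endothelium is specified by VEGF and Notch signalling together with SoxF factors, while the nuclear receptor encoded by Nr2f2 holds Notch signalling down in veins. Lymphatic vessels bud from embryonic veins where SOX18 and the Nr2f2 product switch on Prox1, the homeodomain factor that sets lymphatic fate. Growing lymphatic sprouts then follow VEGF-C through its receptor VEGFR3, encoded by Flt4. In the fetal lung these vessel types form within the mesenchyme alongside the branching airways, and Nr2f2 is also active in mesenchymal cells.

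The deposited peak lists held 134503 to 211678 peaks on the assembled chromosomes, and replicate 1 stood apart, with the fewest peaks and a median fold enrichment of 8.99 against 3.73 to 3.90 in the others. Peak names in its list begin with Frais (French, fresh), whereas the other 3 lists use Frozen, and the labels describe all lungs as frozen. Fold values were therefore compared only as percentiles, the rank of a peak within its own list from 0 to 100. Gene lists by tissue were counted as well. They were chosen with earlier results of these data known, so they are no independent check of the tissue label. All 8 lung genes (Nkx2-1 and Tbx4 among them) had a peak within 1 kb of an annotated gene end in every library. So did 1 of 7 liver products and 5 of 9 blood and immune genes. Over all protein-coding genes this share was 66.7%.

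RefSeq (GRCm38.p6, the assembly behind mm10) gave a transcription start and strand for 4 members, Gja5, Nr2f2, Prox1 and Flt4. The 250 bases before each start are shown because a peak touched the 1 kb around each of these starts in every library, as at 66.5% of 17492 genes with a RefSeq start. Capitals mark AGGAAG, a short motif of ETS factors, which are central regulators of endothelial genes. Gja5 lies on the plus strand (chr3:97032152-97032401), Flt4 on the plus strand (chr11:49609429-49609678), Prox1 on the minus strand (chr1:190170828-190171077) and Nr2f2 on the minus strand (chr7:70366747-70366996), and each sequence reads 5′ to 3′ towards the gene.
Gja5: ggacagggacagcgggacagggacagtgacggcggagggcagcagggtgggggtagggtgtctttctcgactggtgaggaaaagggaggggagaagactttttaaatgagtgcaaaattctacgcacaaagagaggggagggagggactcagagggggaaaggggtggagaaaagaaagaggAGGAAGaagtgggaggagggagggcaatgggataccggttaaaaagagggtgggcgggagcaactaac
Flt4: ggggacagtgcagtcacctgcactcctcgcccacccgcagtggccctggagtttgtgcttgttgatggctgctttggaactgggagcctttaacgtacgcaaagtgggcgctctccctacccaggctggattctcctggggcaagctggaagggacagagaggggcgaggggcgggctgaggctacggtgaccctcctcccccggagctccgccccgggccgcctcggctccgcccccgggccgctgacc
Prox1: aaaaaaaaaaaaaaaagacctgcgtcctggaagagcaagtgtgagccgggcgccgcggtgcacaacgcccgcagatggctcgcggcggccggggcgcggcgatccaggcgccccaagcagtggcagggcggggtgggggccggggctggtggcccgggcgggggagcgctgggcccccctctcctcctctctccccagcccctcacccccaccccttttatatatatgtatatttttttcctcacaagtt
Nr2f2: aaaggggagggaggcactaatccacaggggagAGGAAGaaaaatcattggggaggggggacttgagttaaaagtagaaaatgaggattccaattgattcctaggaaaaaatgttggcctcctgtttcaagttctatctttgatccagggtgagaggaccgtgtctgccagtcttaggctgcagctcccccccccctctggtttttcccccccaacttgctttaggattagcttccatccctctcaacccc
Both strands were searched for 10 motifs. SOX factors were represented by the letters AACAAT and by the longer form AACAAAG. ETS factors were represented by AGGAAG and by a second form, CCGGAAG. The Notch partner RBPJ was represented by GTGGGAA, Kruppel-like factors by CCACACCC, GATA factors by AGATAA, forkhead factors by TGTTTAC and the E-box by CACGTG. The last was the direct repeat of NR2F receptors with a 1-base spacer. Only AGGAAG was found, once in Gja5 (positions -68 to -63 from the start) and once in Nr2f2 (positions -218 to -213), and neither match overlaps another motif. Of 21263 RefSeq starts of protein-coding genes, 28.5% held AGGAAG in the same 250 bases, so a match of this kind is common. The SOX letters AACAAT and AACAAAG were present at 8.22% and 4.43% of these starts, CCGGAAG at 8.98%, GTGGGAA at 5.26%, CCACACCC at 3.32%, AGATAA at 8.81%, TGTTTAC at 2.62%, CACGTG at 6.63% and the NR2F repeat at 0.042%. The sequence shown for Prox1 is that of the outer of its 2 RefSeq starts. The sequences differed widely in CpG dinucleotides, with 20 in Prox1 (11 before its inner start), 16 in Flt4, 7 in Gja5 and 1 in Nr2f2, against a median of 10 over all starts. Only 6.61% of starts held fewer CpG dinucleotides than that of Nr2f2.

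Peak positions at these starts also differed. At Flt4 the summits lay at positions -27, -88, -83 and -62 from the start in replicates 1 to 4, all within the printed sequence. At Gja5 they lay at -58, -124 and -202 in replicates 1 to 3, and at -1223 in replicate 4. The first 2 of these positions flank the AGGAAG match. At Prox1 the summits lay 122, 148, 81 and 267 bases after the start, just inside the gene. RefSeq gives Prox1 a second start further inside the gene (chr1:190169515). From it the same summits lay at positions -1190, -1164, -1231 and -1045, and in replicate 1 that start base was in no peak. This inner start falls within a separate region with a peak in every library (chr1:190167923-190169765), at fold percentiles of 36.8, 83.0, 80.5 and 76.4 in replicates 1 to 4. At Nr2f2 the strongest peak touching the 1 kb around the start had its summit 1698, 1691 and 1591 bases inside the gene in replicates 1 to 3 and at position -2327 in replicate 4, and in replicate 3 the start base itself was in no peak.

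Each gene was then examined with 100 kb on either side, a window of 202 to 253 kb, and any peak touching it was counted. Nos3, which encodes the endothelial nitric oxide synthase, had the most peaks and Sox17, an early arterial transcription factor, the fewest. Across all 21887 genes the median density was 6.95, 10.8, 12.8 and 11.6 peaks per 100 kb in replicates 1 to 4. Of the 10 members, 6 (Gja5, Nos3, Nr2f2, Aplnr, Lyve1 and Sox18) lay above this median in every library, against 41.9% of all genes, and 2 (Sox17 and Prox1) lay below it in every library, against 41.8%. Only Nos3 stayed in the top 25% in every library, against 17.5% of all genes.

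**Figure D1:**
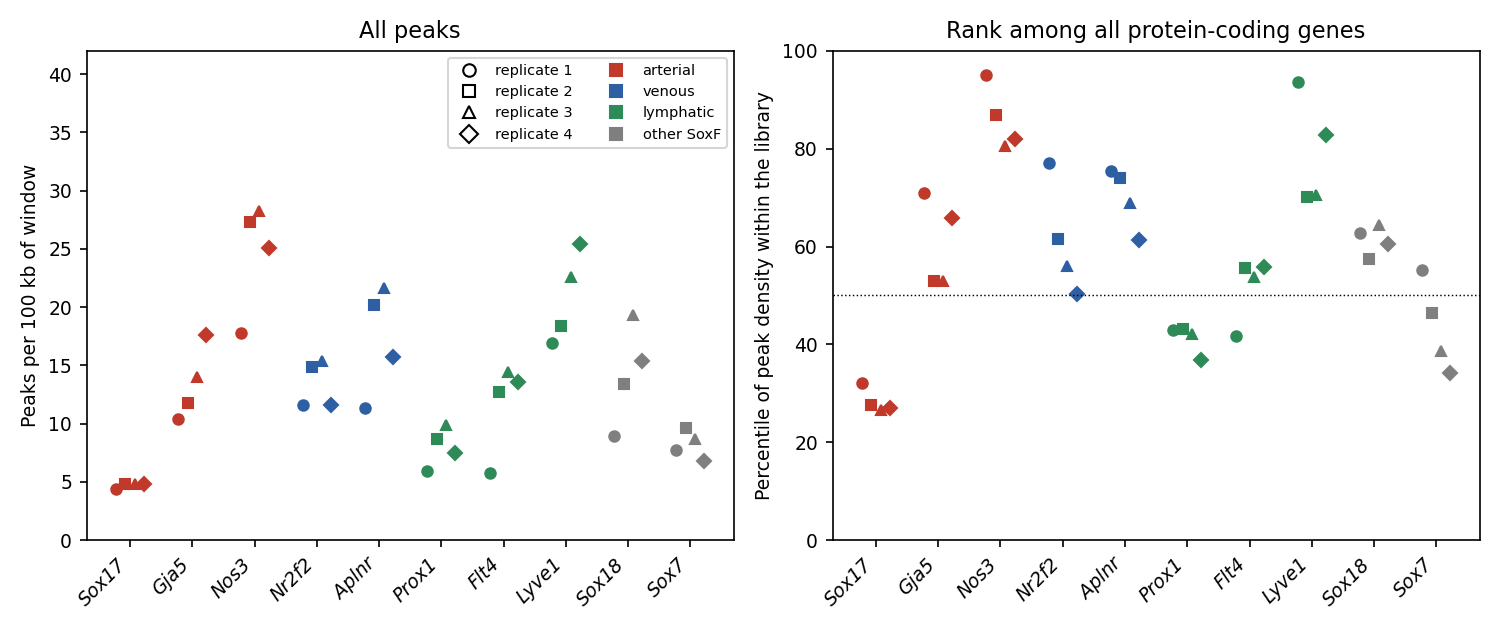
Peaks per 100 kb in the window of each gene (left) and the percentile of that density among all protein-coding genes of the same library (right, dotted line at 50). Each symbol is 1 library and colours mark the class; Nos3 is the highest by mean and Sox17 sits near 5 peaks per 100 kb in every library.

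Among arterial genes, the Sox17 window held 9, 10, 10 and 10 peaks in replicates 1 to 4, or 4.72 ± 0.24 per 100 kb (SD, n = 4). It was the most even of all members over the libraries and the sparsest, at percentile 28.3 ± 2.53 of genes. Gja5, encoding connexin 40 of arterial gap junctions, had 23, 26, 31 and 39 peaks, or 13.4 ± 3.16 per 100 kb. The Nos3 window held 39, 60, 62 and 55 peaks, or 24.6 ± 4.75 per 100 kb, at percentile 86.2 ± 6.51. Replicate 1 had the fewest peaks at all 3 arterial genes. By percentile among genes of the same library it was the highest, at 32.1 for Sox17, 70.9 for Gja5 and 95.0 for Nos3. The 3 windows differ in gene content, with 1 other protein-coding gene around Sox17, none around Gja5 and 9 around Nos3, against a median of 4 over all genes.

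The venous genes were closer to each other. Nr2f2 had 25, 32, 33 and 25 peaks, or 13.4 ± 2.02 per 100 kb, with replicates 1 and 4 at the low end. Aplnr, the receptor for apelin, had 23, 41, 44 and 32 peaks, or 17.2 ± 4.66 per 100 kb. Relative to other genes of the same library, Nr2f2 ranged from percentile 77.1 in replicate 1 to 50.2 in replicate 4, and Aplnr from 75.4 to 61.2 in the same libraries. Thus replicate 1 had the fewest peaks, or as few as replicate 4, but the highest rank at both genes. The Nr2f2 window held no other protein-coding gene and the Aplnr window 4.

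Lymphatic genes spread widely. Prox1 had 15, 22, 25 and 19 peaks, or 8.01 ± 1.69 per 100 kb, in a window with no other protein-coding gene. Flt4 had 14 peaks in replicate 1 and 31, 35 and 33 in replicates 2 to 4, or 11.6 ± 3.97 per 100 kb. The window of Lyve1, which encodes a hyaluronan receptor of lymphatic endothelium and some macrophages, had 36, 39, 48 and 54 peaks, or 20.8 ± 3.89 per 100 kb. Lyve1 exceeded Prox1 and Flt4 in every library, without overlap of the ranges. Its rank among genes ran from percentile 70.2 in replicate 2 to 93.6 in replicate 1.

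Sox18 and Sox7, which act with Sox17 in endothelial cells, differed as well. Sox18 had 18, 27, 39 and 31 peaks, or 14.2 ± 4.33 per 100 kb, with 10 other protein-coding genes in its window. Sox7 had 16, 20, 18 and 14 peaks, or 8.21 ± 1.25 per 100 kb, with 4 other genes. Ordered by mean density, the members ran Nos3, Lyve1, Aplnr, Sox18, Gja5, Nr2f2, Flt4, Sox7, Prox1 and Sox17. Neighbours in this order differed by less than the larger of their SDs, except Prox1 and Sox17. Without replicate 1 the means ran from 4.84 (Sox17) to 26.9 (Nos3) peaks per 100 kb, and each of the 10 moved by less than its SD over 4 libraries.

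The share of each window lying in peaks gave another order. Peaks covered 14.99% of the Nos3 window in replicate 1 and 38.8%, 45.3% and 47.6% in replicates 2 to 4. Sox18 came next at 18.3% ± 7.84 (SD, n = 4), ahead of Aplnr at 14.0% ± 4.31 and Nr2f2 at 13.4% ± 1.85. Lyve1, second by number of peaks, had 10.7% ± 1.90 of its window in peaks. Sox17, with 2.92% ± 0.58, was the lowest by this measure too. Over all genes the median share was 4.18% in replicate 1 and 7.75% to 8.996% in the others.

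Averaged over genes, the 3 classes had similar densities: 14.3 ± 2.34 peaks per 100 kb for arterial genes, 15.3 ± 3.29 for venous genes and 13.5 ± 2.84 for lymphatic genes (SD over 4 libraries). Genes within a class lay further apart than the class means, from 4.72 to 24.6 among arterial, 13.4 to 17.2 among venous and 8.01 to 20.8 among lymphatic genes. Arterial minus venous was -0.63, -2.88, -2.80 and 2.16 peaks per 100 kb in replicates 1 to 4, a mean of -1.04 ± 2.37. Arterial minus lymphatic was 1.29, 1.36, 0.062 and 0.33, a mean of 0.76 ± 0.66. Venous minus lymphatic was 1.92, 4.24, 2.86 and -1.83, a mean of 1.80 ± 2.60. Only arterial minus lymphatic kept 1 sign in all 4 libraries, with a mean near its own spread. It was larger with a reach of 50 kb (4.15 ± 1.17), with lists cut to equal length (2.65 ± 1.13) and with −log10 q of 5 or more (2.30 ± 1.04). As a difference in percentile among genes it was 6.66, -0.54, -2.06 and -0.12 in replicates 1 to 4, positive in replicate 1 alone. On that scale arterial minus venous was -10.3, -12.0, -9.03 and 2.56, a mean of -7.19 ± 6.61. Venous minus lymphatic was 16.9, 11.5, 6.98 and -2.68, a mean of 8.18 ± 8.30. Both changed sign in replicate 4. The classes hold 2 or 3 chosen genes, which are not replicates, and 4 libraries are too few for a sign-flip test to pass, so no test was made. Without replicate 1 the 3 mean differences in peaks per 100 kb were -1.17, 0.58 and 1.76.

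Peaks whose summit lay more than 2 kb from both ends of every protein-coding gene were taken as distal. With these alone, arterial minus lymphatic changed sign to a mean of -1.20 ± 1.12 peaks per 100 kb, positive only in replicate 1, at 0.29. Arterial minus venous was -2.61 ± 2.33 and negative in all 4 libraries. Venous minus lymphatic was 1.40 ± 2.45 and positive in 3. Arterial genes averaged 9.91 ± 1.53 distal peaks per 100 kb, venous genes 12.5 ± 3.03, lymphatic genes 11.1 ± 2.46, and Sox18 and Sox7 together 6.24 ± 1.63. By distal density, 5 members (Gja5, Nos3, Nr2f2, Aplnr and Lyve1) lay above the median of genes in every library, against 39% of all genes. Only Lyve1 stayed in the top 25%, against 14.9% of all genes.

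**Figure D2:**
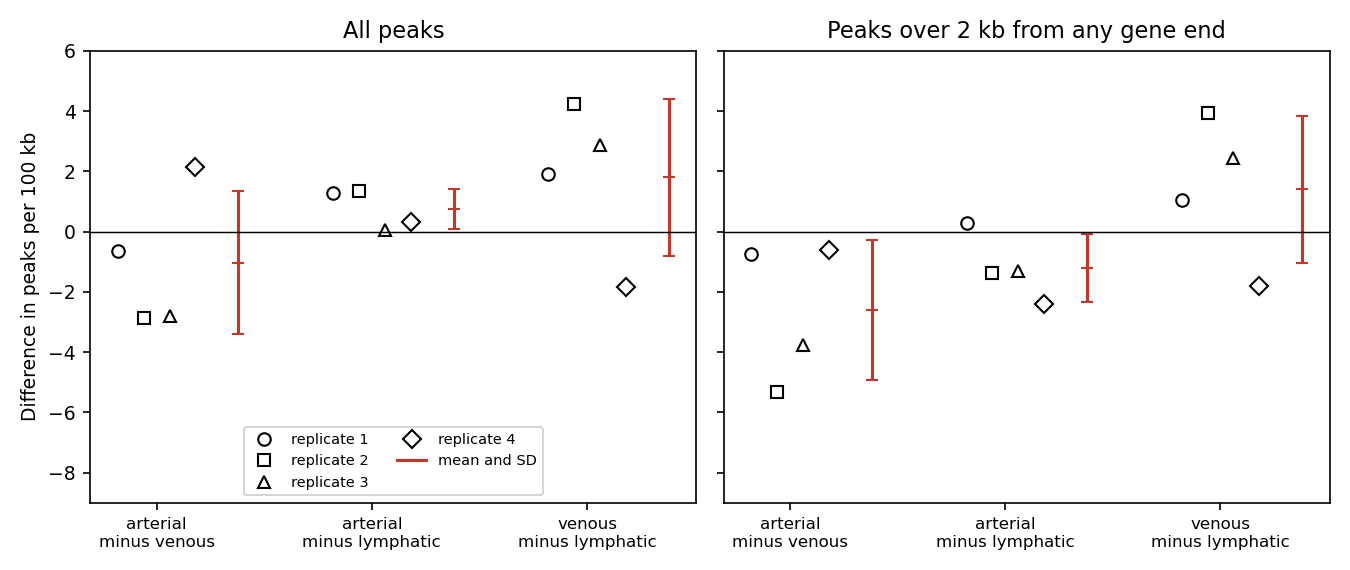
Differences between class means in peaks per 100 kb for all peaks (left) and for distal peaks (right), with 1 symbol per library and the mean with SD in red. Arterial minus lymphatic has a mean of 0.76 on the left and -1.20 on the right.

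The share of distal peaks differed between windows. Of the 18, 27, 39 and 31 peaks at Sox18, 3, 15, 17 and 15 were distal. At Gja5 21 of 23, 20 of 26, 27 of 31 and 34 of 39 peaks were distal. Prox1 kept 13, 19, 22 and 16 distal peaks of its 15, 22, 25 and 19.

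Peaks within 1 kb of an annotated gene end were found in every library at 9 of 10 members, against 66.7% of all genes. Lyve1 was the exception, with a peak in replicates 1 and 2 only, at fold percentiles of 25.2 and 18.1. The strongest gene-end peak averaged over libraries ranked from percentile 54.7 (Sox7) to 96.9 (Nos3) among the other 9. The median over the 10 members was 81.6, while over all genes with a gene-end peak it was 93.1. Of the 10 members 9 were below that value, as were by definition 50% of those genes. Without replicate 1 the mean percentile of Sox17 was 72.3 in place of 62.7, and that of Sox18 was 77.3 in place of 71.6.

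**Figure D3:**
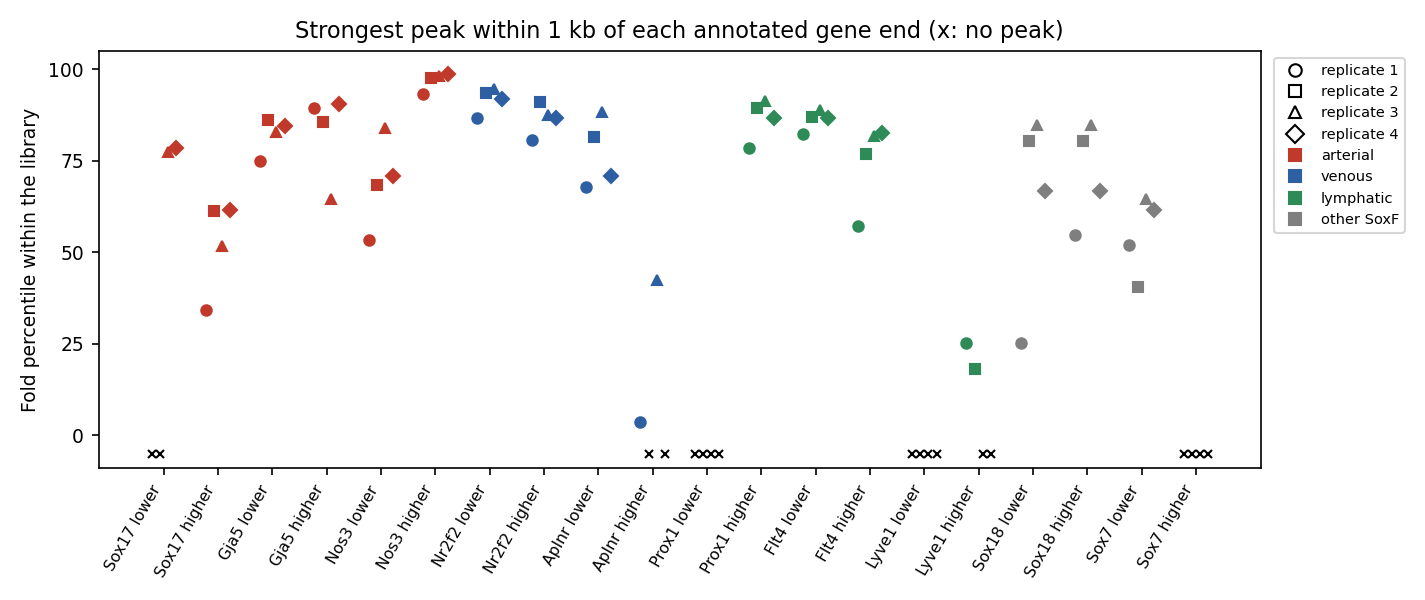
Fold percentile of the strongest peak touching the 1 kb either side of the lower-coordinate and higher-coordinate end of each gene, with 1 symbol per library, colours by class, and a cross where a library has no peak. Prox1, Lyve1 and Sox7 each have 1 end without a peak in any library.

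At Prox1 the peak lay only at the higher-coordinate end, which is its annotated start, at percentiles 78.5, 89.4, 91.2 and 86.7 in replicates 1 to 4. Flt4 had peaks at both ends, at 82.2, 87.0, 88.8 and 86.7 at its start and 57.04, 76.7, 81.8 and 82.6 at its other end. Replicate 1 was the lowest at both genes, and the start of Flt4 ranked above its other end in every library. At the start of Gja5 the percentiles were 74.99, 86.1, 82.9 and 84.5, and at its other end 89.4, 85.5, 64.6 and 90.5. The other end of Gja5 thus ranked above its start in replicates 1 and 4 and below it in replicates 2 and 3. In replicates 1, 2 and 4 the peak scored there had its summit at -2261, -2229 and -2232 bases from that end, inside the gene. In replicate 3 a different peak of 342 bp was scored, with its summit 751 bases beyond the end. The peaks at chr3:97050463-97053465, inside the gene, ranked at 89.4, 85.5, 91.4 and 90.5, so the order in replicate 3 depends on which peak touched the 1 kb.

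Nos3 ranked higher at its higher-coordinate end, at 93.3, 97.7, 98.1 and 98.6, than at its lower-coordinate end, at 53.3, 68.5, 83.9 and 70.8. The ranges do not overlap. The stronger peak belonged to a region of 10318 bp that also touched Atg9b, an autophagy gene. At Aplnr the lower-coordinate end held a peak in every library, at 67.9, 81.4, 88.4 and 70.8, and the other end only in replicates 1 and 3, at 3.68 and 42.3.

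Among the SoxF genes, Sox17 had a peak at its higher-coordinate end at 34.2, 61.2, 51.6 and 61.5, and at its lower-coordinate end in replicates 3 and 4 only. Those 2 lower-end peaks had summits 2275 and 1215 bases inside the gene. They belonged to a region with a peak in every library (chr1:4491807-4493906), at 53.3, 80.5, 77.2 and 78.4, which missed the 1 kb in replicates 1 and 2. The Sox17 mean of 62.7 thus drew on the higher-coordinate end in replicates 1 and 2 and on the lower in replicates 3 and 4. Sox7 had peaks at its lower-coordinate end alone, at 52.0, 40.6, 64.6 and 61.5. Sox18, a gene of 1804 bp, had 1 peak touching both end windows in replicates 2 to 4, at 80.5, 84.7 and 66.7. In replicate 1 it had separate peaks, at 25.2 at the lower-coordinate end and 54.6 at the other.

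Overlapping peaks of the 4 lists were merged into regions, and a region with a peak of every library was called shared. The 10 windows held 457 regions, of which 110 (24.1%) were shared, against 21.5% of 307572 regions genome-wide. The shared regions numbered 6 at Sox17, 13 at Gja5, 16 at Nos3, 9 at Nr2f2, 14 at Aplnr, 7 at Prox1, 10 at Flt4, 21 at Lyve1, 9 at Sox18 and 5 at Sox7. Their median fold percentile, averaged over libraries, was 77.5, against 76.2 for all 66190 shared regions. By place, 20 touched within 2 kb of an end of the member itself, 11 lay elsewhere inside the member, 34 between genes, 23 inside another gene and 22 at the end of another gene. Regions at ends of other genes had a median percentile of 93.6 and those at the members' own ends 73.4. Each region was scored by its highest-ranked peak per library, so a wide region with several peaks can rank higher. These 2 sets were not matched for width, and the median at gene ends genome-wide was not computed.

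**Figure D4:**
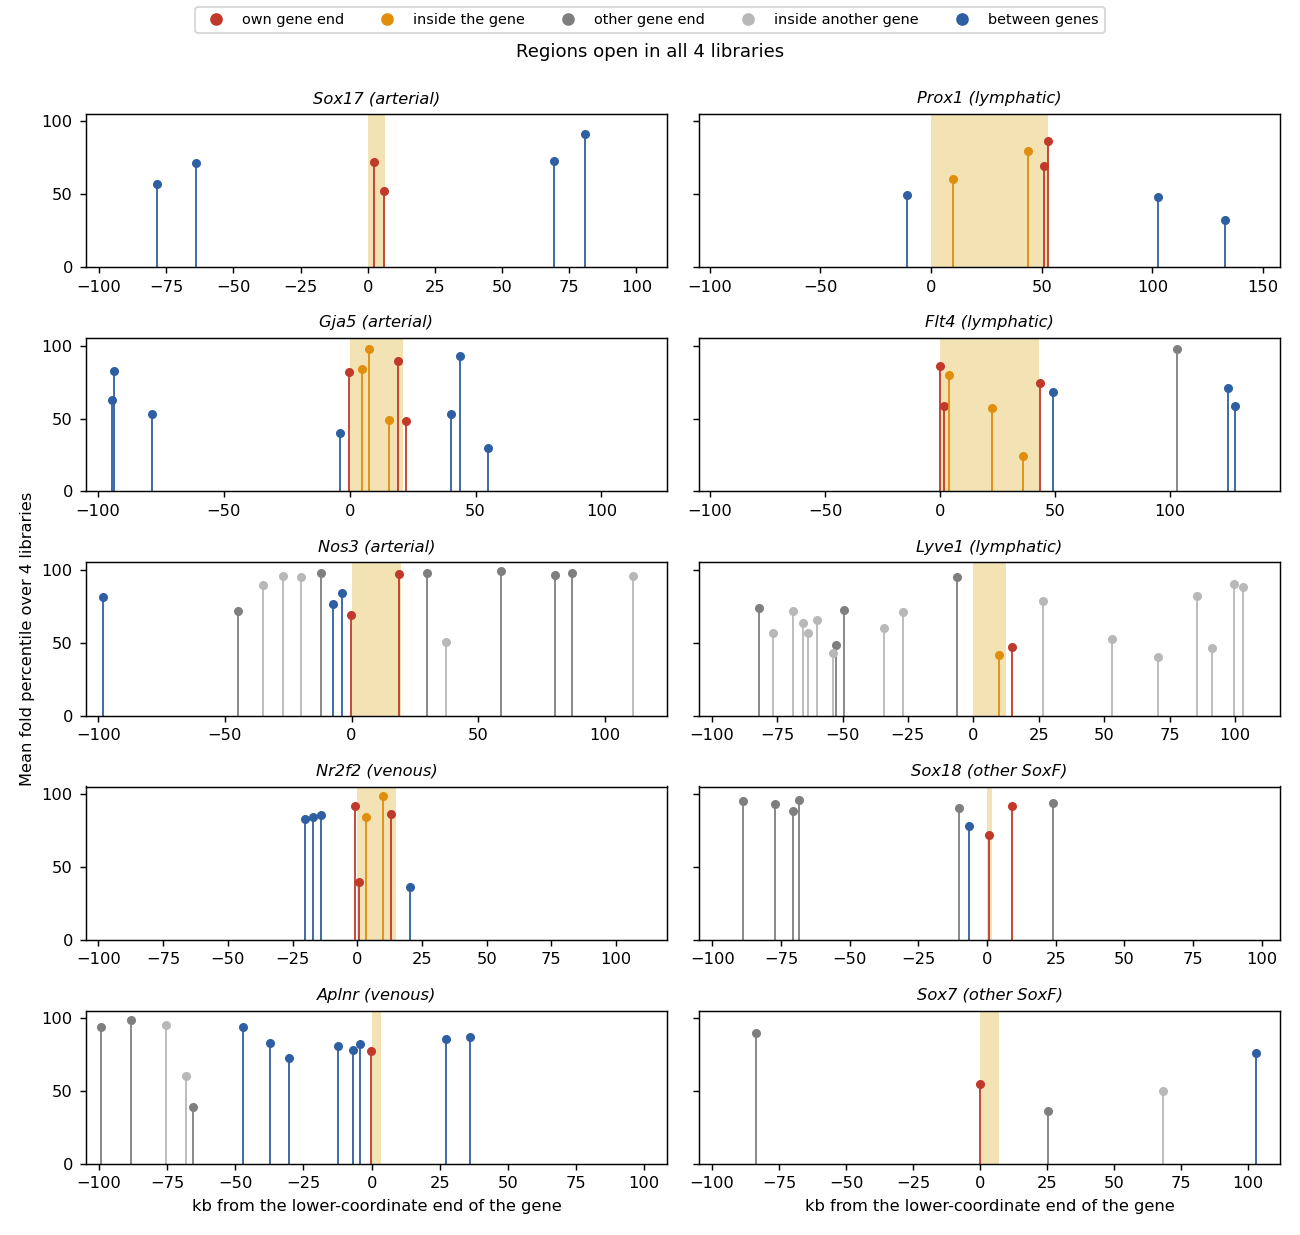
Shared regions around each gene (shaded), by distance of the summit in kb from the lower-coordinate end of the gene. Height is the mean fold percentile over 4 libraries and colour is the place. Own end means that an end of the member lies inside the region or within 2 kb of it. In the Nos3 and Sox18 windows the tall lines are mostly grey, at or inside other genes, while the tallest line of Nr2f2 (98.5) and of Gja5 (97.6) lies inside the gene.

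Strong regions, here those with a mean percentile of 90 or more (a level set for this description), made up 23.3% of all shared regions. They numbered 12 of 35 in arterial windows, 6 of 23 in venous windows, 3 of 38 in lymphatic windows and 6 of 14 around Sox18 and Sox7. Regions near or inside another protein-coding gene accounted for most of them. Without those, 3 of 23 arterial, 3 of 18 venous, 0 of 18 lymphatic and 0 of 4 remaining regions were strong, the 6 being at Gja5, Nr2f2, Sox17 and Aplnr. The share of strong regions among such regions of all genes was not computed, so these counts are given as a description only.

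Gja5 carried its strongest region inside the gene (chr3:97039299-97041530), 7.49 kb from its start, at percentiles 98.9, 97.1, 97.2 and 97.3 in replicates 1 to 4. This exceeded the peak at the annotated start in every library, and summits of the 4 libraries fell within 45 bp of each other. A further region 22.0 kb beyond the gene (chr3:97075591-97077784) ranked at 90.4, 93.0, 94.2 and 94.2. With no other protein-coding gene in the window, neither region touches a neighbour.

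Nr2f2 likewise had its strongest region inside the gene (chr7:70355832-70363086), at 98.6, 98.7, 98.5 and 98.3, an SD of 0.17. The region spans 7255 bp within a gene of 14801 bp, with summits within 39 bp. Regions at the lower-coordinate end (chr7:70345450-70351796) ranked at 86.7, 93.4, 94.5 and 91.8, and at the start (chr7:70364483-70371181) at 80.7, 91.0, 87.4 and 86.7. All 4 libraries thus placed the internal region above both ends. Whether another transcript start lies within the internal region was not examined.

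Around Sox17 the highest region lay 73.8 kb beyond the higher-coordinate end (chr1:4571198-4572355), at 87.6, 92.2, 91.9 and 93.1, and outside any protein-coding gene. The next, at chr1:4559620-4560993 and 62.2 kb away, ranked at 25.2 in replicate 1 and at 85.5, 89.3 and 91.8 in the other libraries. Both ranked above the region at the Sox17 gene in replicates 2 to 4. Aplnr had its highest region clear of other genes 46.0 kb before the lower-coordinate end (chr2:85088484-85090404), at 91.4, 94.2, 95.2 and 94.4. Next among those clear of other genes were regions 32.2 and 23.4 kb beyond the higher-coordinate end, at mean percentiles of 87.1 and 85.3. A region 36.9 kb before the lower-coordinate end followed, at 83.1. Below these, 3 shared regions lay 4.11, 5.84 and 11.9 kb before the lower-coordinate end, at mean percentiles of 82.2, 78.2 and 80.4.

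Prox1 had its highest region at its outer start (chr1:190169960-190171491, mean 86.4 ± 5.60) and the next inside the gene (chr1:190160627-190162410), at 74.99, 85.0, 81.8 and 78.4. The region ranked after these held the inner start (chr1:190167923-190169765, mean 69.2 ± 21.8). Flt4 was highest at its start among regions clear of other genes, followed by a region 3.85 kb inside the gene (chr11:49613016-49614368) at 69.6, 81.4, 87.4 and 81.4. The highest region in the Flt4 window, at 97.4 ± 0.80, lay at an end of Cnot6, a deadenylase gene. Of the 21 shared regions of Lyve1, 1 lay inside the gene at a mean percentile of 41.5. Another began 1.95 kb beyond the higher-coordinate end of Lyve1, at 46.8. The other 19 lay at or inside Ampd3, Rnf141 and Mrvi1, the highest at an end of Rnf141 at 95.1 ± 1.91. Thus few of the shared regions of the Lyve1 window lay at Lyve1 itself.

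For the wider pathways, lists of further genes were counted at gene ends. Of 17 other arterial and Notch genes 16 had a gene-end peak in every library, against 66.7% of all genes, with a median percentile of 96.4. They ranged from Jag2, a Notch ligand, at 82.5 to Notch4, an endothelial Notch receptor, at 99.2, and Bmx, a kinase of arterial endothelium, had no peak in any library. Of 10 other venous genes 8 had one, with a median of 82.6, from the 28.5 of Ackr1 (a chemokine receptor of venules, in 3 libraries) to the 99.6 of Ephb4, the venous ephrin receptor. Selp had none. Of 16 other lymphatic genes 13 had one, with a median of 78.1, from Klhl4 at 47.2 in 2 libraries to Nfatc1 at 93.1. Ccl21a, the chemokine of mature lymphatics, and Mmrn1 had none. Of 16 genes of a general endothelial list (Tal1 and Etv2 among them) 14 had one, with a median of 80.2. They ranged from the 26.2 of Tek (a receptor for angiopoietins, in 3 libraries) to the 94.1 of Egfl7, and Emcn had none. These medians cover the genes of a list with a gene-end peak in any library, not only those with one in every library. They stand beside 93.1 for all genes with a gene-end peak, and the differences between lists were not tested. The lists were not limited to genes active in endothelium alone, and the material was whole lung. The medians therefore give no order of vessel types.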

How the data were processed

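ATAC-seq peaks of 4 libraries of 1 group were analysed, 134503 to 211678 peaks per library after 1245 to 1814 on other contigs were left out. The authors deposited 1 peak list per library, and the submitters' processing notes name Bowtie2 2.5.2, SAMtools 1.18, bedtools 2.31.0, MACS3 3.0.1 and mm10, among other tools. Roles and parameters, duplicate removal and the shift for Tn5 are not given in the sources used here. The deposited fold enrichment, a ratio of the peak caller, was ranked within each list. The deposited −log10 p and q values were used only for a stricter threshold (−log10 q of 5 or more), and the deposited score was not used. Read depth is unknown here.

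Gene positions came from RefSeq (GRCm38.p6). The plan used gene starts where strand is known. As it was known for 4 members only, both annotated ends were used for all genes, and starts are given for those 4 in addition. Planned motif searches in strong regions were not run. Counts, merging and ranks were computed in Python 3.11.15 with pandas 2.3.3 and numpy 2.4.6, and tested on simulated peaks. A peak touched a window with 1 bp or more. Values are means ± SD over libraries, and no test was made, as there is no contrast between conditions.

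All 10 members are named, and of each further list the genes with the highest and lowest gene-end percentile and those with no peak. Members, lists, tests and alternatives were chosen with earlier results of these data known. Alternatives were a reach of 50 kb, the stricter threshold, lists of equal length, summits inside windows, distal peaks only, gene-end windows of 0.5 and 2.5 kb, at least 3 of 4 libraries, and leaving out each library.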

Additional observations from a re-analysis of the deposited data

Results flagged for a closer look

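Of 76 sets of 4 library values examined, 11 had 1 library far from the other 3, its gap to the nearest exceeding Dixon's 95% critical share of the whole range, and in 10 of them that library was replicate 1. Chance gives this in about 1 in 20 sets of independent, normally distributed values. The sets here hold counts and ranks, some of them tied, and regions of 1 window are not independent, so that rate does not apply to them directly. Sox17 had 9 peaks in its window in replicate 1 and 10 in each other library, a difference of a single peak. Replicate 1 was low in regions 2 and 3 of Sox17 (25.2 and 53.3), regions 2 and 3 of Aplnr (89.0 and 87.0), region 3 of Prox1 (36.8) and regions 2, 3 and 5 of Sox18 (89.9, 89.3 and 82.7), all as fold percentiles with regions numbered by mean percentile. It was high at the strongest region of Gja5, at 98.9. The remaining set was region 2 of Lyve1, where replicate 2 was low at 87.8.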

How the results depend on the processing

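With a reach of 50 kb, arterial minus venous changed sign to 0.60 peaks per 100 kb, arterial minus lymphatic rose to 4.15 and the arterial mean to 18.2. With distal peaks only, arterial minus lymphatic changed sign to -1.20, the arterial mean was 9.91 and that of Sox18 and Sox7 was 6.24. With −log10 q of 5 or more, the arterial, venous, lymphatic and other SoxF means were 8.66, 8.99, 6.36 and 6.21 peaks per 100 kb, and arterial minus lymphatic was 2.30. With lists of equal length, the arterial, lymphatic and other SoxF means were 11.7, 9.06 and 8.41, and arterial minus lymphatic was 2.65. Stricter and equal lists hold fewer peaks by construction, and the cause of the other shifts was not tested. Mean venous minus lymphatic was positive under every setting tried, from 0.98 without replicate 2 to 3.55 with a reach of 50 kb. Leaving out each library kept the sign of all 3 mean differences: arterial minus venous ran from -2.10 to -0.42, arterial minus lymphatic from 0.56 to 0.99 and venous minus lymphatic from 0.98 to 3.01. Shared regions in the 10 windows numbered 110, 75 with −log10 q of 5 or more, 181 with at least 3 of 4 libraries, and 160 without replicate 1 against 118 to 120 without another library. Members with a gene-end peak in every library numbered 9 in the main count and without any 1 library, 8 with −log10 q of 5 or more and 10 with windows of 2.5 kb. The share of all genes, 66.7%, was computed for the main count alone. The counts under other settings thus have no share beside them and say nothing particular about these members. The labels give 1 group, and no paired analysis was possible because there is no second group to pair. Read depth is unknown, so a peak missing from a list does not show closed chromatin.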

Other observations

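Regions with a peak in exactly 3 libraries numbered 71 in the 10 windows, and replicate 1 was the missing library in 49 of them (69.0%), against 66.5% of 38126 such regions genome-wide. The share differed between windows: replicate 1 was missing in all 12 at Nos3 and all 7 at Sox18, in 8 of 10 at Flt4 and 4 of 5 at Prox1, but in 2 of 5 at Gja5, 2 of 8 at Sox7 and 1 of 4 at Lyve1. Regions found in replicate 1 alone numbered 33 of 457 in the 10 windows, against 27206 of 307572 genome-wide. They numbered 8 each at Nr2f2 and Lyve1, 5 at Gja5, 3 at Sox7, 2 each at Sox17, Nos3, Aplnr and Prox1, 1 at Flt4 and 0 at Sox18. The differences between windows were not tested.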
